A study of Mus musculus with 6 samples.

Results

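The genes that copy DNA and supply its nucleotides were followed in basophils grown from mouse bone marrow (BMBAs) and given IL-3 or PBS. The set held 53 of the 37043 gene symbols in the table of counts, taken by symbol for their known roles. It covered the licensing of replication origins, the replicative helicase and its activation, the DNA polymerases with their clamp, the supply of deoxynucleotides (dNTPs), chromatin assembly behind the fork, and the cyclin E and E2F genes that control entry into S phase. All 53 genes passed the filter on low counts.

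Bulk RNA-seq data came from 6 libraries of a single experiment, 3 from BMBAs kept with IL-3 at 10 ng/mL for 6 h and 3 from BMBAs given PBS for the same time. The cells of both groups were wild-type and of the C57BL/6J background. They had been grown from bone marrow for 7 days with 0.3 ng/mL of a cytokine, which the methods of the study name as IL-3, and had then been enriched with beads against CD49b, a surface protein of basophils. The PBS group is therefore not a group that never met IL-3, and no source used here states whether the culture cytokine remained in its medium during the 6 h. Nor do these sources give the ages of the mice or whether the 3 cultures of a group came from separate mice, so that p-values measure the spread between these libraries. IL-3 is a cytokine that drives the growth of basophils and mast cells from bone marrow and also activates the mature cells. The study compared these groups to ask how IL-3 alters the cells' retention in the bone marrow, and the replication genes were not its subject.

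Replication starts at origins, where the origin recognition complex (ORC) with Cdc6 and Cdt1 loads the ring-shaped MCM helicase during G1 phase. In S phase the kinase Cdc7 with Dbf4, together with Cdc45 and the GINS complex, turns the loaded helicase on, and DNA polymerases held by the sliding clamp PCNA copy both strands. Much of this machinery is transcribed in bursts under E2F factors as cells enter S phase. Mature granulocytes, basophils among them, do not divide, whereas the bone marrow progenitors that give rise to them do. The study divided BMBAs into pre-basophils and mature basophils. Its pre-basophils carried more of the IgE receptor chain FcεRIα and less CD49b. Those taken from bone marrow built a nucleotide label into DNA, and the mature ones did not.

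Library totals ranged from 10537540 to 13999287 counts, and 16675 genes were tested. Expression is given below in CPM, the read count of a gene relative to the size of its library after TMM scaling. Genes were called by edgeR's quasi-likelihood test when p, adjusted over all tested genes, was below 0.05. By this rule 3003 genes were higher and 3372 were lower in IL-3 than in PBS. Markers of the labelled cells were abundant, and Mcpt8, a protease of basophils, had 2906, 3046 and 3246 CPM in the PBS libraries and 5836, 5754 and 6094 CPM in the IL-3 libraries. Markers of other cells were present and moved as well. The 8 markers of monocytes and macrophages summed to 11450.0 to 12351 CPM with PBS and 5984 to 6586 CPM with IL-3, with Lyz2 the bulk of the sum, 6 of the 8 called lower and 2 called higher, Adgre1 and Ly6c2. The 6 mast cell markers summed to 840.4 to 945 CPM with PBS and 1437 to 1571 CPM with IL-3, 4 of them called higher. The 6 basophil markers summed to 9877 to 11026 and 14622 to 14837 CPM, 4 called higher and 1 lower. The basophil marker called lower was Fcer1a, which encodes FcεRIα (-0.50 on the log2 scale). Itga2, which encodes CD49b, was among those called higher (0.53). Sums for neutrophil, eosinophil and erythroid markers were 78.9 to 114, 154 to 169 and 68.5 to 132 CPM in PBS and 134 to 200.1, 93.4 to 134 and 35.8 to 59.6 CPM in IL-3. The neutrophil and eosinophil lists held members of opposite direction, with Retnlg called higher (2.61 on the log2 scale) and Mpo lower (-0.63) among the 8 neutrophil markers, and Prg2 called higher (3.54) and Ear1, Ear2 and Siglecf lower (-1.25, -1.39 and -0.82) among the 5 eosinophil markers, while of the 5 erythroid markers Hba-a1 and Epor were called lower (-1.14 and -1.34) and none higher. Of the 6 markers of natural killer cells, which CD49b beads would also take, only Nkg7 was expressed highly enough to be tested. It was called higher, from 6.29 ± 1.11 CPM with PBS to 29.3 ± 1.73 CPM with IL-3 (SD, n = 3 each, log2 fold change 2.22), and Gzma had 0 counts in all 6 libraries. In bulk RNA a smaller share of cells of a type and less RNA per cell cannot be told apart. The part in the results below of the other cell types, or of a shift between pre-basophils and mature basophils, was not tested.

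Most replication and nucleotide supply genes had lower expression relative to library size in IL-3-stimulated BMBAs. Of the 53 genes, 37 were called lower, where 20.2% of all tested genes were, and 2 were called higher, where 18.0% of all tested genes were. The remaining 14 did not pass the test, and the estimate of each of them was below 0. The median log2 fold change over the 53 genes was -0.54, beside -0.0033 over all tested genes. Their summed expression was 1154 to 1192 CPM in the PBS libraries and 833 to 859 CPM in the IL-3 libraries, so that the groups did not overlap. The sum of the monocyte and macrophage markers was also lower in all 3 IL-3 libraries than in the PBS libraries, and those of the basophil and mast cell markers were higher. In 37 genes all 3 IL-3 libraries lay below all 3 PBS libraries, as in 24.4% of all tested genes, and in 2 genes they lay above, as in 23.8%. The deepest falls were those of E2f8, Prim1, Rrm2, Tk1 and Ccne1, the 5 called genes with a log2 fold change of -1 or lower, and the genes that rose were Orc2 and Tyms. Together these made 39 calls of 53, where 38.2% of all tested genes were called in either direction, and 26 of them held in each of the 15 other settings of scaling, filter, test and left-out library that were run at the same threshold against a change of 0. The other 13 are named below with their role. A test against a fold of 1.5 called only 6 genes, E2f7, E2f8, Gmnn, Mcm7, Prim1 and Rrm2, all lower. Scaling by library totals, which moved the median of all genes to -0.17, called 8 of the 14 uncalled genes lower, namely Ccne2, Cdc7, Chaf1b, E2f2, Mcm3, Orc6, Pole2 and Rfc5.

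**Figure D1:**
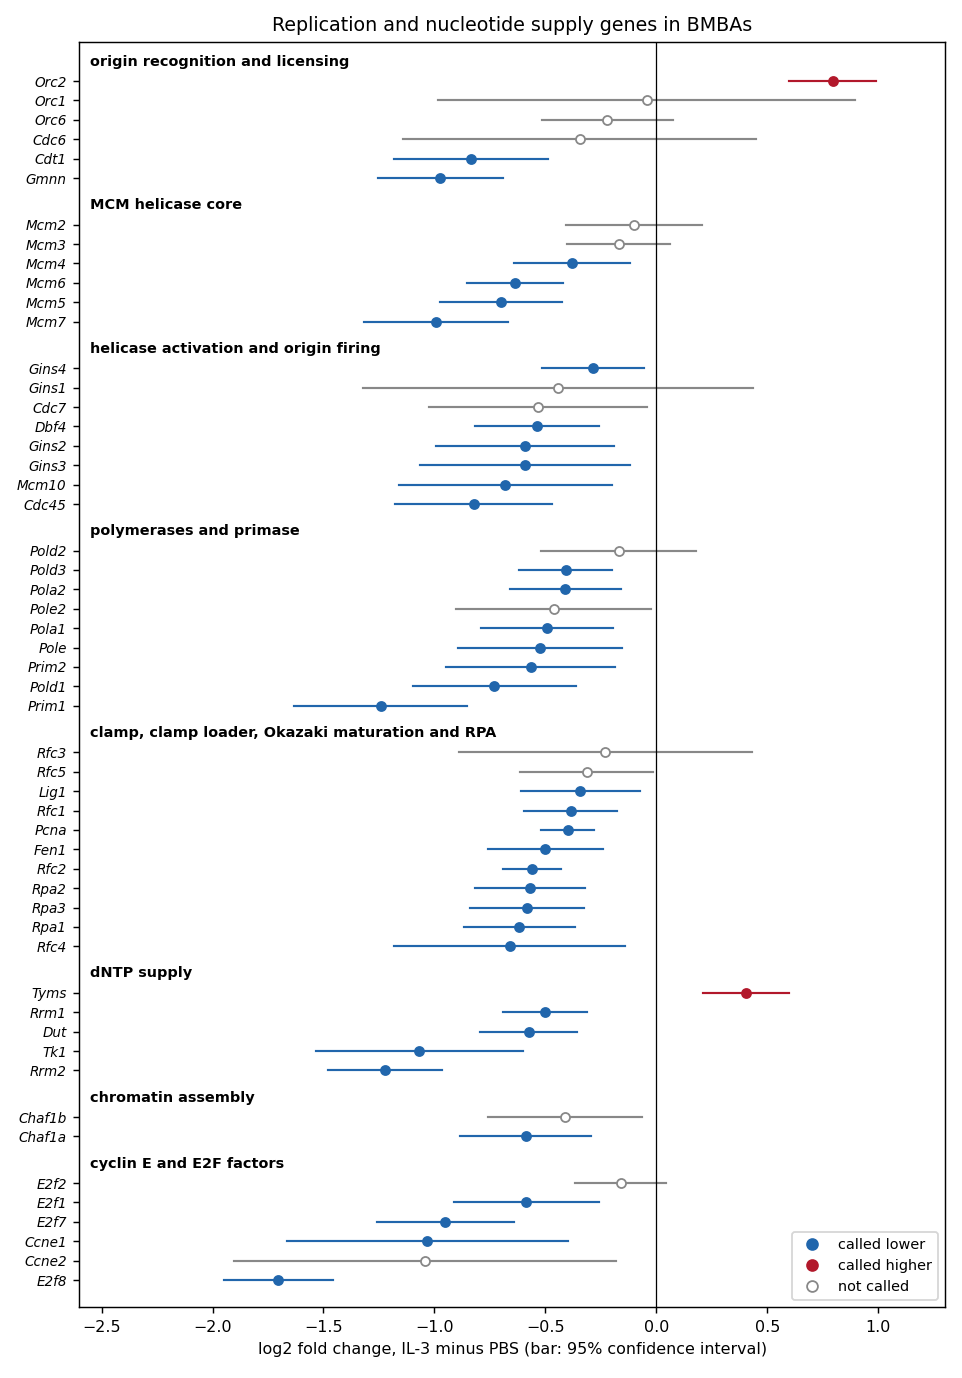
Log2 fold change (IL-3 minus PBS, x axis) of each of the 53 genes (y axis), grouped by role, with bars for the 95% confidence interval from edgeR. Blue points were called lower, red points higher and open grey points did not pass the test, and Orc2 and Tyms are the only points to the right of 0.

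Origin recognition and licensing had 1 of 6 genes called higher, 2 lower and 3 not called. That is 16.7% higher and 33.3% lower, beside 18.0% and 20.2% of all tested genes. The median log2 fold change of this group was -0.28, and it moved to -0.07 without PBS replicate 2 and to -0.50 without PBS replicate 1. Orc2, a subunit of ORC (chromosome 1, 58462771 to 58505109, GRCm38, minus strand), was expressed at 23.6, 20.5 and 24.3 CPM in PBS and at 38.0, 40.1 and 40.6 CPM with IL-3. Its IL-3 libraries all lay far above its PBS libraries, with a log2 fold change of 0.79 (SE 0.0928, edgeR adjusted p 4.65e-06). Nif3l1, which shares 1150 exonic bases with Orc2 on the opposite strand, had a log2 fold change of 0.12. Geminin, encoded by Gmnn, binds Cdt1 and keeps origins from being licensed again, and it had 21.4, 20.0 and 18.9 CPM with PBS and 11.8, 8.83 and 10.2 CPM with IL-3. Cdt1, which brings the helicase to ORC, had 11.5, 9.47 and 13.5 CPM with PBS and 6.22, 6.25 and 6.83 CPM with IL-3. The licensing factor and its inhibitor thus both fell, with log2 fold changes of -0.83 (SE 0.163, edgeR adjusted p 7.24e-04) and -0.97 (SE 0.133, edgeR adjusted p 2.54e-05), and with no overlap between the groups in either gene.

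The other licensing genes did not pass the test. Orc6, another ORC subunit, had a log2 fold change of -0.22 with a 95% confidence interval of -0.52 to 0.075. Orc1 and Cdc6, the ATPases that complete the loading complex, were at 0.777 ± 0.177 and 3.38 ± 1.86 CPM in PBS (SD, n = 3), and their intervals of -0.99 to 0.90 and -1.14 to 0.45 span both a marked fall and a rise. The direction of these 2 estimates turned when single libraries were left out, up to 0.23 for Orc1 without IL-3 replicate 3 and 0.17 for Cdc6 without PBS replicate 2. The 3 further ORC subunits, which were not among the 53 genes and were looked at after the rise of Orc2 had been seen, were at 19.4 ± 0.296 CPM with PBS and 24.9 ± 2.80 CPM with IL-3 for Orc3, 26.7 ± 1.22 and 32.9 ± 3.51 CPM for Orc4, and 12.2 ± 1.62 and 9.10 ± 2.19 CPM for Orc5 (SD, n = 3 each). Orc3 and Orc4 were called higher (log2 fold changes 0.36 and 0.30, edgeR adjusted p 0.0166 and 0.0254), whereas Orc5 was not (log2 fold change -0.43, adjusted p 0.0678). Without IL-3 replicate 1 neither Orc3 nor Orc4 was called, at 0.27 and 0.25 on the log2 scale with adjusted p-values of 0.0944 and 0.106, and Orc4 was also lost without PBS replicate 1 (0.26) or IL-3 replicate 2 (0.25).

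The MCM helicase is a ring of 6 related subunits that are needed in equal number. The estimates for their transcripts differed in size, and the differences between subunits were not tested. Mcm4, Mcm5, Mcm6 and Mcm7 were called lower, Mcm2 and Mcm3 were not called, and the median log2 fold change was -0.51. Mcm7 had 18.9, 23.2 and 22.0 CPM with PBS and 8.49, 13.3 and 10.2 CPM with IL-3, a log2 fold change of -0.99 (SE 0.153, edgeR adjusted p 8.16e-05). Mcm5 had 16.0, 19.0 and 17.9 CPM with PBS and 10.3, 11.9 and 10.3 CPM with IL-3, a log2 fold change of -0.70 (SE 0.129, edgeR adjusted p 4.56e-04). The groups did not overlap in either gene. Mcm6 had a log2 fold change of -0.64 and Mcm4 one of -0.38, the latter no longer called without PBS replicate 3 (-0.32), IL-3 replicate 2 (-0.30) or IL-3 replicate 3 (-0.37). For Mcm2 and Mcm3 the estimates of -0.10 and -0.17 had 95% confidence intervals of -0.41 to 0.21 and -0.40 to 0.064, both of which exclude a fall of 0.5 on this scale. Per kilobase of transcript, the 6 subunits lay between 2.83 (Mcm2) and 7.98 CPM (Mcm3) in PBS and between 2.64 (Mcm2) and 7.09 CPM (Mcm3) in IL-3. Transcripts of Mcm7 share 18.1% of their 50-base stretches with Gm5487, which took 5 to 15 counts per library, and the opposite-strand gene Ap4m1, which shares 321 exonic bases with Mcm7, had a log2 fold change of -0.27.

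All 8 genes of helicase activation had estimates below 0, 6 of them called, with a median of -0.56. Cdc45, which joins the MCM ring and GINS in the active helicase, had 10.7, 10.3 and 13.6 CPM with PBS and 5.82, 7.58 and 6.05 CPM with IL-3. It fell by 0.82 on the log2 scale (SE 0.167, edgeR adjusted p 9.78e-04), with no overlap between the groups. Mcm10, which helps the active helicase to open the origin, had 4.74, 4.03 and 3.96 CPM with PBS and 2.37, 3.08 and 2.48 CPM with IL-3, all 3 IL-3 libraries below the PBS libraries. Its log2 fold change of -0.68 (SE 0.225, edgeR adjusted p 0.0256) was no longer called without PBS replicate 1 (-0.59), IL-3 replicate 1 (-0.62) or IL-3 replicate 3 (-0.63).

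Dbf4, the regulatory subunit of the kinase Cdc7, had 18.2, 22.4 and 22.5 CPM with PBS and 14.9, 16.1 and 12.5 CPM with IL-3, and Cdc7 itself had 4.83, 8.15 and 8.54 CPM with PBS and 5.33, 5.75 and 3.80 CPM with IL-3. The log2 fold changes of the pair were nearly equal at -0.54 and -0.53. Dbf4 was called (SE 0.131, edgeR adjusted p 0.00405) and its groups did not overlap, whereas Cdc7, with fewer counts and overlapping groups, was not (SE 0.231, adjusted p 0.0823). Cdc7 was called as well without PBS replicate 1 (-0.76), with no filter (-0.52) and under library totals (-0.70). The 4 subunits of GINS had log2 fold changes of -0.44 (Gins1, not called), -0.59 (Gins2), -0.59 (Gins3) and -0.29 (Gins4), and each of the calls was lost when single libraries were left out. In Gins2 the groups overlapped, since IL-3 replicate 3 lay above PBS replicate 1. Gins2 shares 2758 exonic bases on the opposite strand with Gse1, a gene at 100.0 CPM with PBS and 84.3 CPM with IL-3 (log2 fold change -0.25).

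The polymerases and primase fell with a median of -0.49, 7 of 9 genes called lower. Primase lays the RNA primers from which every new strand starts, and its catalytic subunit Prim1 had 15.0, 17.0 and 17.4 CPM with PBS and 5.04, 6.16 and 9.38 CPM with IL-3. This was a fall to 42.3% of the PBS level, a log2 fold change of -1.24 (SE 0.183, edgeR adjusted p 5.53e-05), and the highest IL-3 library lay below the lowest PBS library. Its partner Prim2 had a log2 fold change of -0.57, and the difference between these genes was not tested. Pold1, the catalytic subunit of polymerase delta, had 9.41, 12.6 and 11.4 CPM with PBS and 6.81, 5.41 and 7.83 CPM with IL-3, without overlap, and a log2 fold change of -0.73 (SE 0.173, edgeR adjusted p 0.00326). The other subunits of polymerase delta had log2 fold changes of -0.17 (Pold2, not called) and -0.41 (Pold3, called). Both subunits of polymerase alpha were called, Pola1 at -0.49 and Pola2 at -0.41, and of polymerase epsilon Pole was called at -0.52 while Pole2 at -0.46 was not, although its IL-3 libraries all lay below its PBS libraries. Leaving out single libraries ended the calls of Prim2 (PBS replicate 2, IL-3 replicates 2 and 3), Pole (4 of the 6 libraries), Pola1 (IL-3 replicate 2) and Pola2 (IL-3 replicate 1), at values from -0.53 to -0.36.

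**Figure D2:**
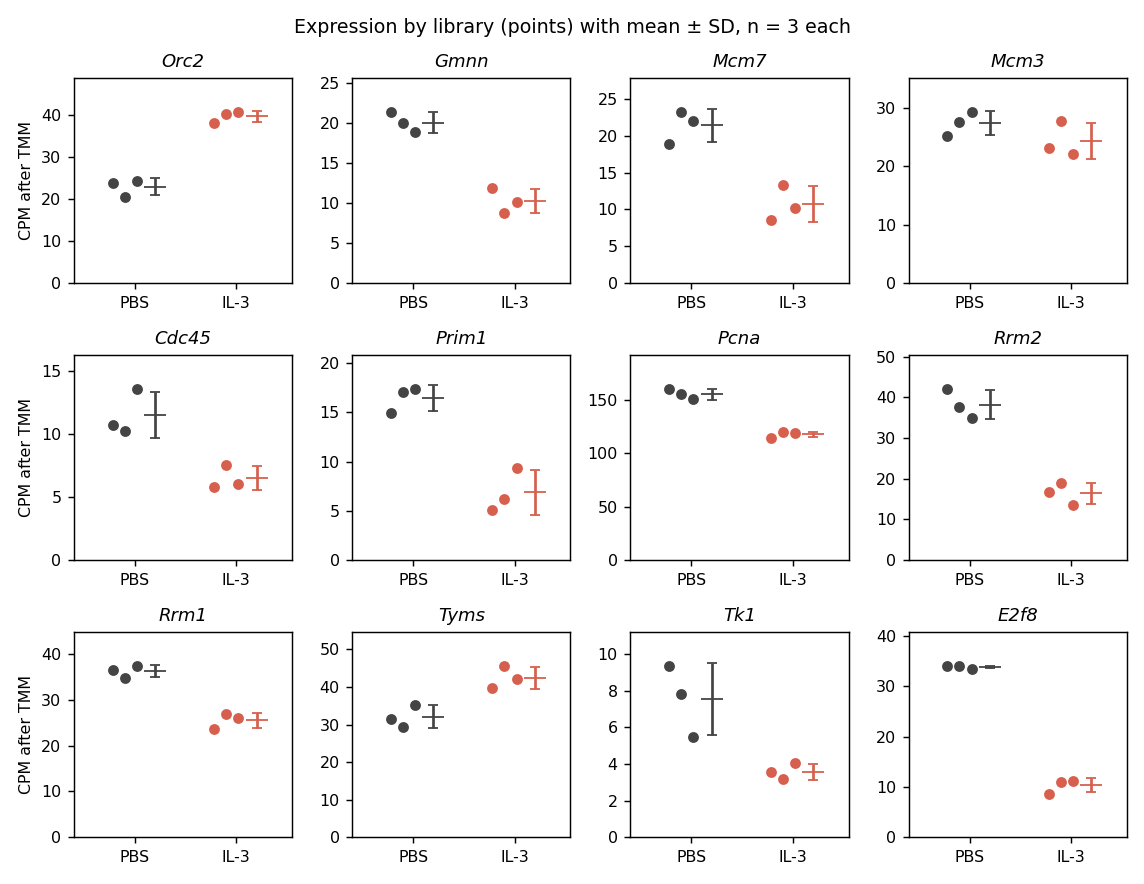
Expression in CPM after TMM scaling (y axis, from 0) of 12 genes in the 3 PBS (grey) and 3 IL-3 (red) libraries, with the mean and SD beside the points. In Orc2 and Tyms the IL-3 points lie above the PBS points, in Mcm3 they overlap, and in the other 9 genes they lie below.

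The clamp, its loader and the factors that mature the lagging strand had 9 of 11 genes called lower and 2 not called, with all estimates between -0.66 and -0.23 and a median of -0.50. Pcna, the sliding clamp, was the most abundant of the 53 genes per kilobase of transcript, at 102 CPM per kilobase in PBS and 77.6 in IL-3, and fell by 0.40 on the log2 scale (edgeR adjusted p 3.23e-05). Its pseudogene Pcna-ps2, with which it shares 19.1% of its 50-base stretches, took 342 to 533 counts per library. Rpa1, the large subunit of the complex that coats single-stranded DNA, had 26.7, 28.6 and 28.8 CPM with PBS and 21.5, 15.6 and 17.9 CPM with IL-3, a log2 fold change of -0.62 (SE 0.118, edgeR adjusted p 6.25e-04) without overlap. The other subunits of this complex were also called lower, with -0.57 for Rpa2 and -0.58 for Rpa3. Rfc4, a subunit of the clamp loader, had 4.50, 9.29 and 6.34 CPM with PBS and 4.64, 3.58 and 4.50 CPM with IL-3. These groups overlapped, and its log2 fold change of -0.66 (SE 0.244, edgeR adjusted p 0.0439) became -0.35 without PBS replicate 2, and its call was lost when any library other than PBS replicate 1 was left out.

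Among the other clamp loader subunits Rfc1 and Rfc2 were called, at -0.39 and -0.56, and Rfc3 and Rfc5 were not, at -0.23 and -0.31. Without PBS replicate 1 Rfc5 was called. Rfc5 shares 499 exonic bases on the opposite strand with Wsb2 (log2 fold change -0.68) and Rfc4 194 with Eif4a2 (0.45). The exons of Rfc2 share 952 bases on the opposite strand with Lat2, a gene at 385 CPM with PBS and 499 CPM with IL-3, and no source used here states whether the counting used strand. Fen1 and Lig1, the nuclease and ligase that join Okazaki fragments, had log2 fold changes of -0.50 and -0.34. The call of Lig1 was lost without PBS replicate 2 (-0.24), PBS replicate 3 (-0.36), IL-3 replicate 2 (-0.35) or IL-3 replicate 3 (-0.28).

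In the supply of dNTPs all 5 genes were called, 4 lower and 1 higher, with a median of -0.58 and no overlap between the groups in any of them. Ribonucleotide reductase makes dNTPs from ribonucleotides and consists of a large subunit, Rrm1, and a small subunit, Rrm2, which dividing cells make in S phase. Rrm2 had 42.0, 37.6 and 35.0 CPM with PBS and 16.7, 18.9 and 13.7 CPM with IL-3, a fall to 42.9% with a log2 fold change of -1.22 (SE 0.120, edgeR adjusted p 6.70e-07). Rrm1 had 36.6, 34.8 and 37.3 CPM with PBS and 23.7, 26.8 and 26.1 CPM with IL-3, a smaller fall of 0.50 (SE 0.0890, edgeR adjusted p 3.09e-04). Dut, which removes dUTP from the pool, fell by 0.58.

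The enzymes that make thymidylate moved in opposite directions. Tk1, which salvages thymidine, had 9.33, 7.80 and 5.46 CPM with PBS and 3.55, 3.16 and 4.03 CPM with IL-3. Tyms, which makes thymidylate anew from dUMP, had 31.6, 29.4 and 35.3 CPM with PBS and 39.7, 45.6 and 42.0 CPM with IL-3. The log2 fold change of Tk1 was -1.07 (SE 0.219, edgeR adjusted p 0.00108) and that of Tyms was 0.40 (SE 0.0917, edgeR adjusted p 0.00238). The rise of Tyms was smaller when libraries were scaled by their totals alone, at 0.24 with an adjusted p of 0.0555. Tyms shares 5.25% of its 50-base stretches with Tyms-ps, which took 3 to 8 counts per library.

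Chromatin assembly factor 1 places histones on newly copied DNA. Its large subunit Chaf1a had 12.8, 14.8 and 15.4 CPM with PBS and 8.49, 9.58 and 10.4 CPM with IL-3, a fall of 0.59 on the log2 scale (SE 0.139, edgeR adjusted p 0.00321) without overlap. Chaf1b was not called at -0.41 (edgeR adjusted p 0.0596), although all 3 IL-3 libraries lay below its PBS libraries, and it was called under iterated TMM (-0.43) and library totals (-0.57). Chaf1a shares 4648 exonic bases with Ubxn6 on the opposite strand, which had a log2 fold change of -0.32.

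Cyclin E and the E2F factors had the lowest median of the 8 groups, -0.99, with 4 of 6 genes called lower. E2f8, an E2F factor that represses its targets in late S phase, fell the most of all 53 genes. It had 34.0, 33.9 and 33.5 CPM with PBS and 8.69, 11.0 and 11.2 CPM with IL-3, a fall to 30.7% of the PBS level with a log2 fold change of -1.70 (SE 0.115, edgeR adjusted p 7.83e-09). Among the 16675 tested genes its log2 fold change ranked 140th from the lowest. E2f7, the other factor of this kind, fell by 0.95.

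The activating E2F factors of the set, E2f1 and E2f2, had estimates of smaller size than E2f7 and E2f8. Of these differences only that between E2f8 and E2f1 was compared, as a ratio below. E2f1 had 11.8, 10.1 and 11.9 CPM with PBS and 6.32, 7.66 and 8.38 CPM with IL-3, a fall of 0.59 (SE 0.154, edgeR adjusted p 0.00662) without overlap. E2f2 was not called, at -0.16 with a 95% confidence interval of -0.37 to 0.045. Cyclin E activates the kinase that starts S phase, and its genes Ccne1 and Ccne2 were both low. Ccne1 had 3.35, 5.79 and 2.82 CPM with PBS and 1.88, 2.25 and 1.71 CPM with IL-3, and Ccne2 had 3.52, 2.46 and 3.26 CPM with PBS and 0.987, 0.583 and 2.79 CPM with IL-3. Ccne1 did not overlap between the groups and was called at -1.03 (SE 0.297, edgeR adjusted p 0.0119), but not without PBS replicate 2, its highest library, at -0.67 and an adjusted p of 0.0897. Ccne2 had an almost equal log2 fold change of -1.04 (SE 0.405, edgeR adjusted p 0.0540) and overlapped through IL-3 replicate 3. It shares 609 exonic bases on the opposite strand with Ints8 (log2 fold change 0.44). Without IL-3 replicate 3 Ccne2 was called, at -1.98. With all 6 libraries it was also called under library totals, iterated TMM, no filter, the replicate block, limma-voom and GC and length offsets, at -1.30 to -1.03, and it was not called in the other alternatives run.

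Ratios of raw counts within a library, which do not depend on how libraries are scaled, were compared for 6 pairs of genes with linked roles. With 3 libraries per group the smallest p that an exact two-sided permutation test allows is 0.1, so that none of these ratios could pass a threshold of 0.05. The ratio of Rrm2 to Rrm1 was 1.15, 1.08 and 0.936 in PBS and 0.704, 0.705 and 0.524 in IL-3. The ratio of Tyms to Tk1 was 3.39, 3.76 and 6.47 in PBS and 11.2, 14.4 and 10.4 in IL-3, and that of E2f8 to E2f1 was 2.88, 3.37 and 2.81 in PBS and 1.38, 1.43 and 1.34 in IL-3. In these 3 pairs the groups did not overlap, the differences were -0.72, 1.45 and -1.12 on the log2 scale, and each exact permutation p was 0.1 and 0.2 after adjustment over the 6 pairs.

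In the other 3 pairs the groups overlapped. Cdt1 to Gmnn was 0.538, 0.474 and 0.715 in PBS and 0.525, 0.708 and 0.672 in IL-3, with an exact permutation p of 0.7. Dbf4 to Cdc7 was 3.76, 2.75 and 2.63 in PBS and 2.80, 2.80 and 3.29 in IL-3, with an exact permutation p of 1.0. Ccne1 to Ccne2 ran from 0.865 to 2.36 in PBS and from 0.611 to 3.86 in IL-3, with an exact permutation p of 0.7. After adjustment over the 6 pairs these p-values were 0.84, 1.0 and 0.84. A further 2 ratios were chosen after the values had been seen and were not tested. Mcm7 to Mcm3, subunits that sit in the same ring, went from 0.750, 0.841 and 0.751 to 0.368, 0.479 and 0.465, and Orc2 to Orc6, subunits of ORC, went from 1.97, 1.36 and 1.48 to 3.24, 3.12 and 3.21.

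**Figure D3:**
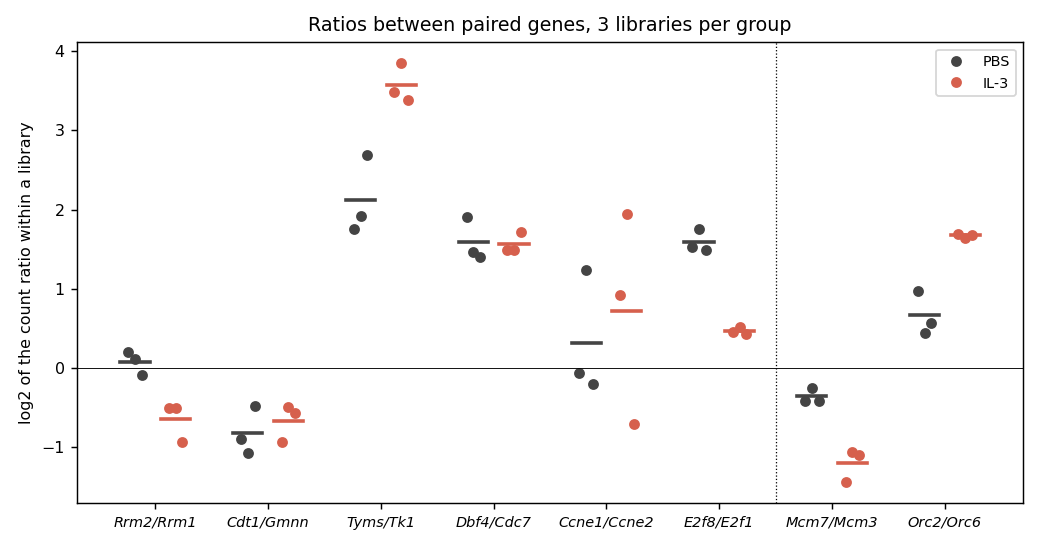
Log2 of the ratio of raw counts of paired genes within each library (y axis) for PBS (grey) and IL-3 (red), with a bar at the mean of 3 libraries. The pairs right of the dotted line were chosen after their values were seen. The groups lie apart for Rrm2/Rrm1, Tyms/Tk1, E2f8/E2f1, Mcm7/Mcm3 and Orc2/Orc6 and overlap for the other 3 pairs.

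Of the 9 genes with a mean under 5 CPM in PBS, 3 were called, and of the 44 genes at 5 CPM or more, 36 were called. Among the 14 genes that did not pass the test, 10 had a 95% confidence interval that lay wholly above a log2 fold change of -1. The exceptions were Cdc6, Cdc7, Gins1 and Ccne2. In simulated libraries of the same depth, 98.5% of genes changed 2-fold were called. The changed genes were drawn only from genes above 5 CPM, so that this share does not apply to genes below that level.

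Of 34 further replication genes, 16 were called lower and 6 higher, and their median log2 fold change was -0.40. That is 47.1% lower and 17.6% higher, beside 20.2% and 18.0% of all tested genes, so that the share that rose was near that of all genes. The 3 with the smallest adjusted p were Top2a, the topoisomerase that untangles copied DNA (-0.91), Asf1b, a histone chaperone at the fork (-0.93), and Rnaseh2c, a subunit of the nuclease that removes ribonucleotides from DNA (-0.83). The 6 that rose were Orc3, Orc4, Mcmbp, Chtf8, Pole4 and Top1, named after their values were seen, with log2 fold changes from 0.20 (Top1) to 0.48 (Chtf8). When libraries were scaled by their totals none of these 6 was called. Of the 12 other genes of dNTP metabolism 6 were lower, among them the nucleoside kinase Dck (-0.99), the dNTP hydrolase Samhd1 (-0.78) and the pyrophosphatase Dctpp1 (-0.87). The 1 that was higher, Rrm2b, encodes the alternative small subunit of ribonucleotide reductase that is used outside S phase, and had 36.5, 35.0 and 39.3 CPM with PBS and 46.7, 46.7 and 47.8 CPM with IL-3, a log2 fold change of 0.35 (edgeR adjusted p 0.00209). With scaling by library totals it was not called, at 0.19.

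Synthesis of nucleotides from small precursors, which also feeds RNA, centred on a log2 fold change of 0.01 (median of 25 genes), with 6 lower, 3 higher and 16 not called. The lower calls made up 24.0% of the list, near the 20.2% of all tested genes, and the 3 of 25 called higher were no larger a share than the 18.0% of all tested genes. The lower genes with the smallest adjusted p were Adssl1 (-1.03) and Paics (-0.61), both enzymes of purine synthesis. Nme1, a kinase that makes nucleoside triphosphates, rose from 53.9, 56.3 and 46.7 CPM in PBS to 85.2, 91.4 and 90.4 CPM with IL-3. The other genes called higher, Adsl (0.25) and Impdh1 (0.24), each lost the call in more than 1 alternative. Of 18 genes that govern the passage from G1 into S phase, 9 were lower and 1 higher, with a median of -0.35. They included cyclin A2 (Ccna2, -0.94), the E2F partner Tfdp2 (-1.26) and the pocket protein Rbl2 (-0.61), and the gene that rose was E2f4 (0.34), an E2F factor of resting cells. With scaling by library totals E2f4 was not called, at 0.18.

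Genes of mitosis had the lowest median of these lists. Of 32 such genes 31 were called lower, with a median of -1.05, and leaving out Top2a, which both lists hold, the median was -1.06. Cenpa and Cenpf, which act at the centromere, had log2 fold changes of -1.19 and -1.31, and Ube2c, which drives the exit from mitosis, had -1.18. The single gene not called was Kif23, at 0.18. The summed expression of the 32 genes was 1366 to 1512 CPM with PBS and 653 to 792 CPM with IL-3. The difference between the medians of the lists was not tested.

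**Figure D4:**
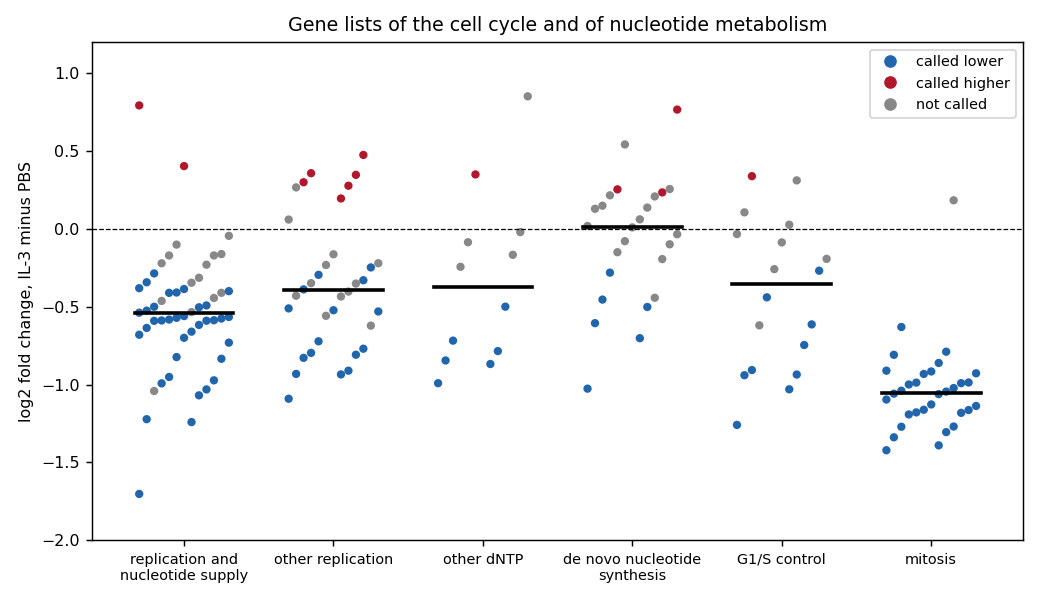
Log2 fold change (IL-3 minus PBS, y axis) of every gene of the 53 replication and nucleotide supply genes and of 5 further lists, with a black bar at each median and a dashed line at the median of all tested genes. Medians run from -1.05 for mitosis genes through -0.54 for the 53 genes to 0.01 for de novo nucleotide synthesis.

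The promoters of these genes were searched for the motifs of the cell cycle, since genes of S phase often carry E2F sites and genes of mitosis often carry the cell cycle homology region (CHR) with CCAAT boxes. The 250 bases before the start site were taken from RefSeq (GRCm38.p6), which gave 52 windows for 44 of the 53 genes, since 7 genes had more than 1 start site. A gene was counted as holding a motif when any of its windows did, in each list and over all genes. An E2F site was taken as TTTCCCGC, TTTCGCGC, TTTGCCGC or TTTGGCGC on either strand, where matches may overlap each other. It was present in 9 of the 44 genes (20.5%, or 9 of the 52 windows), against 2.16% of 27025 genes and 3.57% of 28 mitosis genes but beside 20.7% of 29 further replication genes and 46.2% of 13 G1/S control genes. The CHR, searched as TTTGAA on either strand, was present in 18.2% of the 44 genes (8 of the 52 windows), 18.3% of all genes and 35.7% of mitosis genes, and CCAAT on either strand in 59.1%, 37.5% and 75.0%. The 9 genes with an E2F site were Mcm5, Mcm6, Mcm7, Orc1, Cdc6, Gins3, Rfc3, E2f7 and Pola1. Their median log2 fold change was -0.59 with 6 of 9 called lower, beside -0.53 with 24 of 35 called lower and 2 higher among the genes whose windows held no such site.

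The windows of 4 genes that hold an E2F site are shown from 10 bases before the first site to the start, with the sites in capitals, as examples from the helicase, the polymerases and the E2F factors. They lie outside the annotated exons. The window of E2f8, the gene that fell the most, held no E2F site and is shown for its CHR in capitals.
Mcm5 (chr8:75109346-75109508, plus strand): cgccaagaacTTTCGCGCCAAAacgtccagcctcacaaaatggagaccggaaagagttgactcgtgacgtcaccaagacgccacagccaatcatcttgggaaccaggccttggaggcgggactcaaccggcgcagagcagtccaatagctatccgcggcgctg
Mcm6 (chr1:128359706-128359825, minus strand): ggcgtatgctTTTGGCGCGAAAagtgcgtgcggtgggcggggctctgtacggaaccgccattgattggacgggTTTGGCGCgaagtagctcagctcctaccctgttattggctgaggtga
Pola1 (chrX:93632156-93632303, minus strand): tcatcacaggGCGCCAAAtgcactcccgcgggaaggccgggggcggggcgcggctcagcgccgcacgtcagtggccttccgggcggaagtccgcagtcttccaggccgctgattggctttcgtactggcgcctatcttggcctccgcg
E2f7 (chr10:110745231-110745438, plus strand): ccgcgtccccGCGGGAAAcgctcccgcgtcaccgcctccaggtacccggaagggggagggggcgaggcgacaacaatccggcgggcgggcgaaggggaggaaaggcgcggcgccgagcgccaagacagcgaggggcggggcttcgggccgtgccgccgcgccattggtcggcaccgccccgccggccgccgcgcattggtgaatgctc
E2f8 (chr7:48881597-48881626, minus strand): gcgggttaatTTCAAAtcgggggctggact
In Mcm5 and in Mcm6 a pair of sites on opposite strands overlap, beginning 153 and 149 bases before the start in Mcm5 and 110 and 106 bases before it in Mcm6, and Mcm6 has another site at 47 bases. The log2 fold changes of these genes, in the order shown, were -0.70, -0.64, -0.49, -0.95 and -1.70. Neither Orc2 nor Tyms, the genes that rose, had an E2F site or a CHR in a window. A match of letters describes the sequence only, and binding was not measured here.

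**Figure D5:**
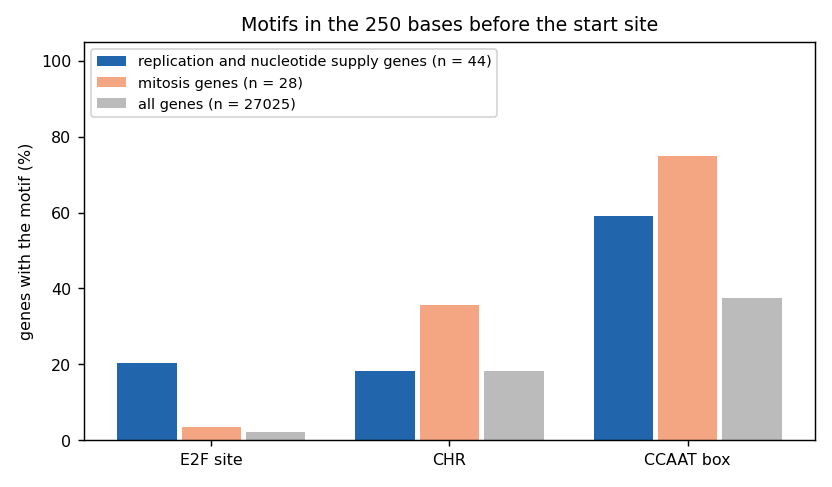
Share of genes (y axis, %) whose 250 bases before any of their start sites hold each of 3 motifs, for the replication and nucleotide supply genes (blue), mitosis genes (orange) and all genes (grey) with a window. The E2F site was present in 20.5%, 3.57% and 2.16% of these genes.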

How the data were processed

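RNA-seq was performed on 3 PBS and 3 IL-3 libraries of BMBAs. The deposited values are raw read counts per gene symbol. Per the study's methods and the labels, poly(A) RNA was reverse-transcribed on oligo-dT beads, the whole cDNA was amplified and fragmented, reads were trimmed with Cutadapt 3.4 and mapped to reference RNA with Bowtie2, and the authors counted reads per gene. No molecular identifiers are described, so reads copied by PCR count separately, and no use of strand or treatment of reads with several origins is given in the sources used here. The methods name build GRCm38 and the labels GRCm39. The table carries symbols only, and coordinates and lengths here are those of GENCODE M21 (GRCm38). The labels name a column kit for the RNA and the methods name direct lysis.

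The 53 genes and the other lists were chosen with earlier results of these data known. IL-3 was compared with PBS in edgeR 4.0.16 (R 4.3.3) with filterByExpr, TMM and the two-sided quasi-likelihood F test of group alone, with Benjamini-Hochberg adjustment over 16675 genes and calls at adjusted p below 0.05. SEs were derived from F. Values are given by library for the 2 called genes of largest change in each group of roles, for genes that rose and for paired genes. From each other list the 3 called genes of smallest adjusted p were named, and marker lists are given as sums. Genes outside this rule (Orc3, Orc4, Orc5, Mcmbp, Chtf8, Pole4, Top1, Rrm2b, Adsl, Impdh1, E2f4, Kif23 and the markers) were chosen after their values were seen. At these depths 3 counts, the limit that 0 counts allow, equal 0.233 to 0.296 CPM. The 95% confidence intervals of log2 fold changes were built from the SEs and include the spread between libraries. On simulated counts 98.5% of 200 genes changed 2-fold, all drawn from genes above 5 CPM, were called among 16696 genes, and 0.0849% of unchanged genes.

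Alternatives were DESeq2 1.42.0 size factors, library totals, iterated TMM, no filter, a filter of 1 CPM in 3 libraries, the DESeq2 Wald test, limma-voom (limma 3.58.1), a test against a fold of 1.5, GC and length offsets (GC known for 97.25% of tested genes), a replicate block, leaving out each library, and an adjusted p below 0.01.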

Additional observations from a re-analysis of the deposited data

How the results depend on the processing

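The median of the 53 genes stayed between -0.70 and -0.49 in every alternative run, and 29 to 45 of them were called lower, except in a test against a fold of 1.5, which called 6 lower and 0 higher, and at an adjusted p below 0.01, which called 25 lower. The test against 1.5 also left 709 higher and 883 lower genes of all tested genes, 3 lower and 0 higher further replication genes, 3 and 0 further dNTP genes, 1 and 1 genes of de novo nucleotide synthesis and 4 and 0 G1/S control genes. Scaling by library totals shifted the median of all genes to -0.17 and gave 1698 higher genes (5030 lower), 1 higher among the 53 genes, 0 among further replication, further dNTP and G1/S control genes, 1 in de novo synthesis, and a de novo median of -0.15. Higher genes of de novo synthesis also numbered 1 with iterated TMM (median -0.014), the replicate block, the DESeq2 Wald test and an adjusted p below 0.01, and 2 with no filter. An adjusted p below 0.01 left 3 higher further replication genes.

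Leaving out each library in turn gave 29 to 36 lower and 2 to 2 higher of the 53 genes, 3 to 6 higher further replication genes, 1 to 2 higher further dNTP genes, 1 to 2 higher de novo genes with medians from -0.052 to 0.047, and log2 fold changes of -0.45 to 0.23 (Orc1), -0.65 to 0.17 (Cdc6) and -0.51 to 0.00075 (Rfc3). The Dbf4 to Cdc7 difference then ran from -0.13 to 0.13 and that of Ccne1 to Ccne2 from -0.21 to 1.12. The sources used here give same-numbered libraries no link beyond the number. Their deviations did not correlate (r -0.0087, -0.016 and -0.022), and no library correlated best with its own number. With 3 libraries per group this check cannot show whether same-numbered cultures had a shared origin. The replicate block called 2842 genes higher and 3247 lower, 2 and 34 of the 53, and the ratio differences under the block equal the unblocked ones by construction (Rrm2/Rrm1 -0.72, Cdt1/Gmnn 0.15, Tyms/Tk1 1.45, Dbf4/Cdc7 -0.028, Ccne1/Ccne2 0.40, E2f8/E2f1 -1.12), where the smallest p of 8 sign changes is 0.25. The cause of these shifts was not tested.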
